A study of Mus musculus with 84 samples.

Results

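The 84 genes described here encode the proteins of the cytosolic ribosome and a few close relatives. They were taken by symbol from 49671 gene rows of each count file: protein-coding rows named Rpl or Rps with a number, and Rplp0, Rplp1, Rplp2 and Rpsa. Pseudogenes, predicted genes, the Rps6k kinases and paralogues with a mean under 1 CPM (the count of a gene scaled to a common library total) over all libraries were left out. Of 372 rows with such a symbol, 102 were protein coding; 10 of these were Rps6k kinases, 6 carried a pseudogene name and 2, Rpl3l and Rpl10l, were under the limit. Just inside it were Rpl39l with a mean of 1.01 CPM and Rps27rt with 2.09 CPM, and just outside was Rpl3l with 0.0543 CPM, while Rpl10l was at 0. Of the 84 genes, 49 encode large-subunit and 33 small-subunit proteins or their paralogues. The other 2, Rps19bp1 and Rpl7l1, match the symbol rule but are not subunits of the mature ribosome.

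Each ribosome joins a small subunit, which reads the mRNA, to a large subunit, which forms peptide bonds, and every subunit needs its proteins in matched amounts. Messenger RNAs of these proteins commonly begin with a C followed by a run of pyrimidines, the terminal oligopyrimidine (TOP) tract, through which mTORC1 and Larp1 regulate their translation and stability. Microglia are the resident macrophages of the brain. Growth signals raise the making of ribosomes in many cell types, but the RNA level of these genes is no measure of protein synthesis.

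Mouse microglia were isolated by FACS following a severe traumatic brain injury, and each library was sequenced in bulk. Per the design text, the question was how depleting peripheral monocytes with clodronate liposomes changes microglial expression. The groups were injury with clodronate liposomes (24 libraries), injury with vehicle liposomes that carry PBS (21), injury only (20), and uninjured mice without treatment (19), which titles call Sham and library names Naive, each at days 1, 7, 14, 30 and 60. Groups held 2 to 5 libraries per treatment, day and year in the library name. At day 1 both liposome treatments span an earlier year, shared with injury only and uninjured, and a later one. At day 14 the injury-only and uninjured libraries are of another year than the clodronate and vehicle libraries, and day 60 has a year of its own. Strain, age and sex are not given in the labels, nor whether libraries came from separate mice, so p-values measure the spread between libraries, which may be technical.

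Total gene counts ranged from 1109856 to 18654785, with medians of 13530911 at day 1 and 5211493 at day 60. Summed microglial markers lay between 21551 and 50087 CPM in all libraries but one, and at 4542 CPM in uninjured library 3 of day 14. That library held neutrophil markers at 8449 CPM and monocyte markers at 5983 CPM, against at most 44.0 and 230.0 CPM in any other. Vehicle library 4 of day 7 had 1134078 counts, 54.6% uniquely aligned reads and 22.4% of reads in no feature. At day 14, clodronate library 1 and vehicle library 1 each lay with the other group in monocyte and immediate early gene sums. Results within a day that rest on these libraries are given with and without them.

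Together the 84 genes took 0.514% to 2.03% of gene counts in a library, with a median of 0.796%. Per kilobase of annotated exon, their mean level over all libraries ran from 1.22 CPM per kb for Rpl39l to 298 CPM per kb for Rps29, with a median of 42.9, and 16 genes were above 100. Rplp1 had 283 and Rplp0 249 CPM per kb. Both belong to the stalk of the large subunit, which recruits elongation factors. Near-identical copies may share reads: 276 other rows with such symbols, nearly all pseudogenes, held at most 0.0110% of gene counts in any library, and how reads that fit several places were treated can lower the level of single genes.

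The start sites of a few genes that the results turn on are shown, because the TOP tract lies there. Each line holds the 15 bases before the RefSeq transcription start and the first 15 bases from it on GRCm38.p6, in the sense of transcription; capitals mark a C and the unbroken pyrimidines (C or T) after it, at least 4, where such a run begins within 5 bases of the start.
Rpl38 (chr11:114668565-114668594, plus strand): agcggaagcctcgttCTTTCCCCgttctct
Rpl12 (chr2:32961697-32961726, plus strand): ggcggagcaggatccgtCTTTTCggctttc
Rps6 (chr4:86857353-86857382, minus strand): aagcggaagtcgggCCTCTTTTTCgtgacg
Rps27 (chr3:90213634-90213663, minus strand): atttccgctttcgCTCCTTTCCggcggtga
Rps27l (chr9:66946071-66946100, plus strand): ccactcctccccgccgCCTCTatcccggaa
Rpl22l1 (chr3:28805493-28805522, plus strand): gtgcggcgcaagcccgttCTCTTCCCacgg
Rplp0 (chr5:115559452-115559481, plus strand): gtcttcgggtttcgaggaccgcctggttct
Rpsa (chr9:120127751-120127780, plus strand): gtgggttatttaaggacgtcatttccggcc
Rpl38 (ENSMUSG00000057322) spans chr11:114668524-114672331 on GRCm38, and Rpl22l1 (ENSMUSG00000039221) spans chr3:28805436-28807424. The annotated start can lie some bases from the one that cells use, and Rplp0 and Rpsa show no such run in the window. Rps27l has a further annotated start (chr9:66946398-66946427), not shown, with no such run. The starts of Rpl5 and Rpl22, also not shown, had none either. Of the 84 genes, 64 had a promoter in the table. The run, searched on the transcribed sense only, began within 5 bases of a start in 30 of them (46.9%), against 21.2% of all genes in the table, and exactly at the start in 21.9%, against 3.01%.

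**Figure D1:**
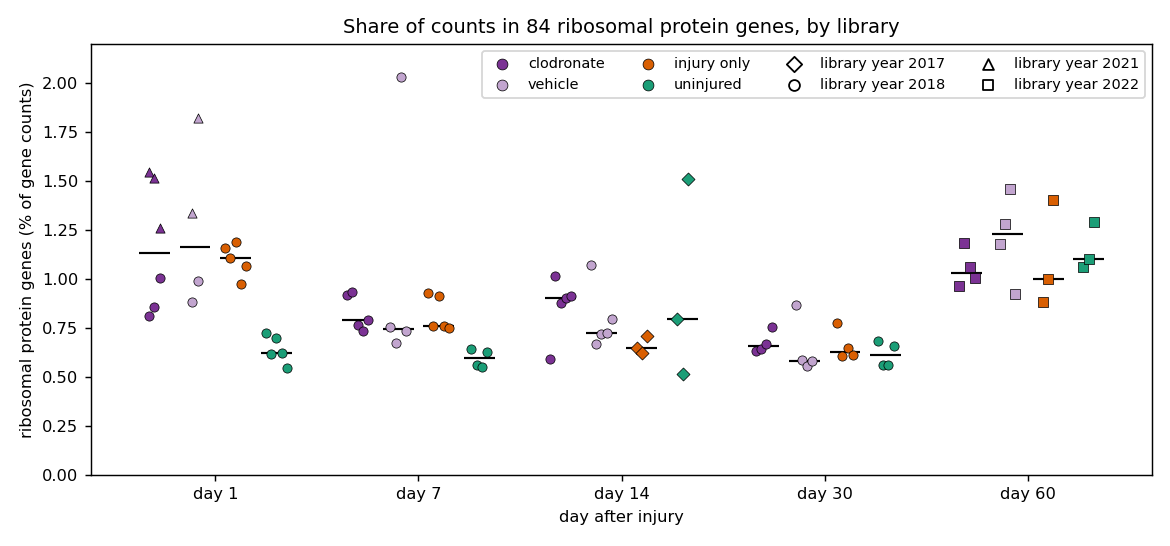
Percent of gene counts in the 84 ribosomal protein genes (vertical axis) for each library, by day and treatment; bars are group medians and marker shapes give the year in the library name. At day 1 all 5 injury-only libraries (0.973% to 1.19%) lie above all 5 uninjured libraries (0.547% to 0.724%), and vehicle library 4 of day 7 stands at 2.03%.

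The first question was what injury alone did to these genes. At day 1 the ribosomal protein genes were higher in injured microglia almost as a block. They took 0.973% to 1.19% of counts in the 5 injury-only libraries and 0.547% to 0.724% in the 5 uninjured libraries. In edgeR's quasi-likelihood test with Benjamini-Hochberg adjustment over all genes (adjusted p under 0.05), 76 of 84 rose and 1 fell, against 18.5% of the 14516 genes tested that rose and 15.3% that fell. With total counts in place of TMM scaling, which moved the median of all genes by 0.11 on the log2 scale, 3445 genes rose and 1678 fell, against 2680 and 2226 with TMM. The median log2 fold change was 0.72 for the 84 genes and 0.00 for all genes tested. In 57 genes every injury-only library was above every uninjured library, which held for 14.1% of all genes. Leaving out 1 library at a time gave 69 to 77 genes that rose.

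Both subunits rose. Among 49 large-subunit genes 46 rose and 1 fell, with a median of 0.76, and among 33 small-subunit genes 30 rose, with a median of 0.69. The fold changes differed between genes by more than their errors: their SD was 0.34 in the large and 0.33 in the small subunit, beside a median standard error of 0.12.

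The largest change was in Rpl38, a large-subunit protein that in mice is known for its part in translating Hox mRNAs. Its level was 82.3, 80.6, 86.8, 61.4 and 79.9 CPM in injury-only libraries, against 31.4, 24.96, 32.7, 23.1 and 22.6 CPM in uninjured libraries. The lowest injured library was above the highest uninjured one. Its log2 fold change was 1.54 ± 0.14 (SE, adjusted p = 4.33e-08).

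Rpl39l, a paralogue of Rpl39 known from the mouse testis, had a log2 fold change of 1.39, but with 1.32 CPM in injury-only and 0.492 CPM in uninjured libraries it did not pass (edgeR adjusted p = 0.0723). Rpl12, which sits at the base of the stalk, averaged 77.8 ± 3.19 CPM in injury-only and 32.9 ± 5.83 CPM in uninjured libraries (SD, n = 5 each), a log2 fold change of 1.24 ± 0.12. The injured and uninjured libraries did not overlap in Rpl12.

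The stalk proteins themselves moved unevenly. Rplp0 was at 709, 682, 764, 587 and 695 CPM in injury-only libraries, against 363, 282, 328, 305 and 247 CPM in uninjured libraries. The groups were far apart, and the log2 fold change was 1.17 ± 0.12 (edgeR adjusted p = 9.82e-08). Rplp2 rose by 0.81 ± 0.11 and Rplp1 by 0.58 ± 0.12 on the log2 scale, and in Rplp1 the groups overlapped. Rpl5 and Rpl11, which bind the 5S rRNA together and can hold back Mdm2, also differed: Rpl5 rose by 1.19 ± 0.11 and Rpl11 by 0.57 ± 0.12.

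Rpsa, also known as the laminin receptor, was at 177, 153, 179, 154 and 167 CPM in injury-only libraries, against 86.7, 71.9, 80.5, 65.2 and 59.2 CPM in uninjured libraries. Its groups did not overlap, with a log2 fold change of 1.19 ± 0.12. Rps6, the substrate of the S6 kinases, averaged 147 ± 10.2 CPM in injury-only and 85.46 ± 12.98 CPM in uninjured libraries, a rise of 0.79 ± 0.11 on the log2 scale. Rpl3, at the peptidyl transferase centre, rose by 0.70 ± 0.10, Rps4x by 0.50 ± 0.12, Rpl39 by 0.81 ± 0.13, and Rpl36a and its paralogue Rpl36al by 0.88 ± 0.12 and 0.77 ± 0.12.

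A handful of genes did not follow. Rpl22l1, a paralogue of the large-subunit protein Rpl22, was the 1 gene that fell: it was at 31.4, 34.5, 24.6, 25.5 and 24.6 CPM in injury-only libraries, against 35.8, 32.2, 42.02, 41.3 and 33.9 CPM in uninjured libraries. One injured library lay within the uninjured range. The log2 fold change was -0.40 ± 0.13 (edgeR adjusted p = 0.0190), and with total counts in place of TMM scaling it was -0.29 and no longer passed (adjusted p = 0.0759, one of a range from 0.00748 by DESeq2 to that value over the settings that kept all libraries). Without uninjured library 3 or 4 it did not pass either (edgeR adjusted p = 0.0547 and 0.0531). Rps27, a small-subunit protein with a zinc finger, was at 96.9, 88.2, 82.7, 59.5 and 67.0 CPM in injury-only libraries, against 104, 87.6, 108, 89.1 and 97.9 CPM in uninjured libraries. Its groups overlapped, and its log2 fold change of -0.30 ± 0.13 missed the threshold (edgeR adjusted p = 0.0861). Rps29 (0.27), Rps27rt (0.09), Rpl39l, Rps19bp1 (0.42) and Rpl7l1 (0.00) did not pass either. Rpl7l1, which is no part of the mature ribosome, averaged 169.8 CPM in both groups.

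**Figure D2:**
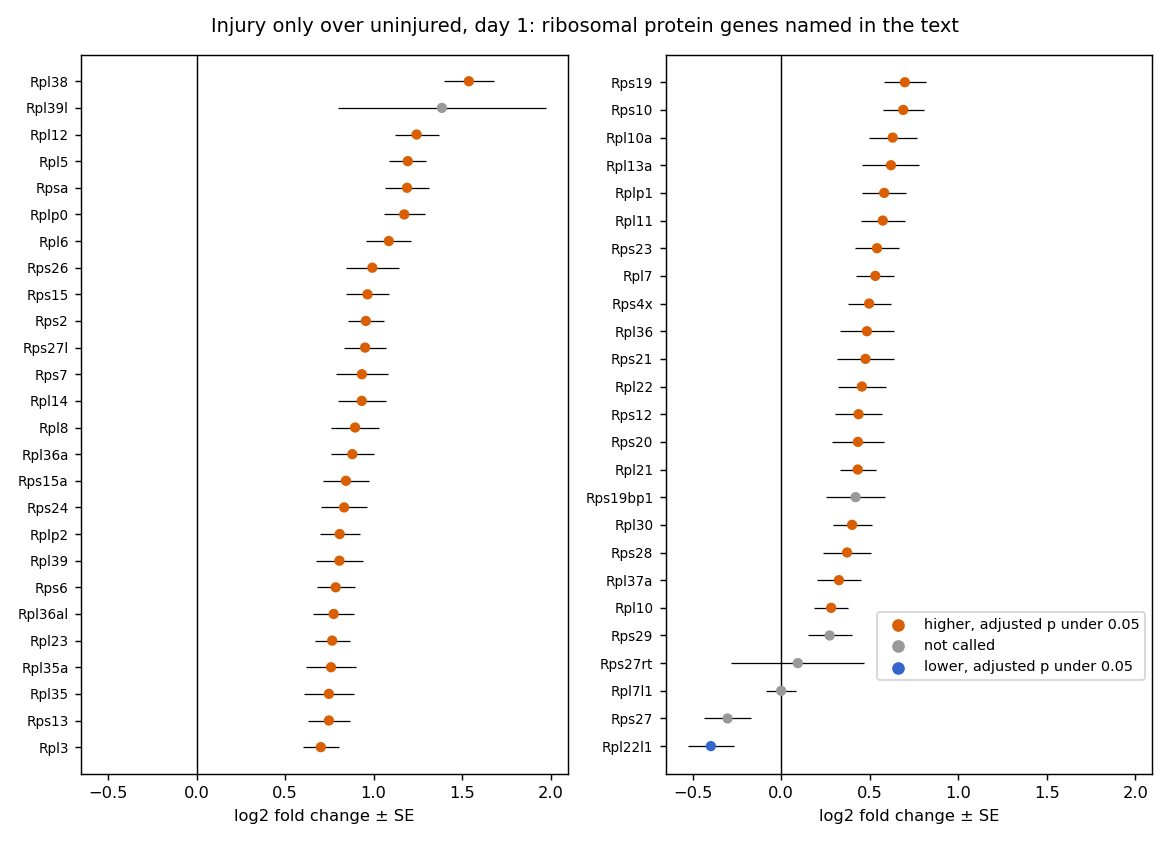
Log2 fold change of injury only over uninjured at day 1 with its standard error (horizontal axis) for the ribosomal protein genes named in the text, in order of size; colours mark the call at an adjusted p under 0.05. Of the genes plotted Rpl38 is highest at 1.54, and Rpl22l1 at -0.40 is the 1 gene called lower.

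Paralogue pairs were compared by the log2 ratio of their counts within a library, which does not depend on library scaling. The ratio Rps27l/Rps27 averaged 0.05 in injury-only and -1.22 in uninjured libraries of day 1, a difference of 1.27. Rps27l, whose gene is a p53 target, was itself at 77.9, 79.4, 94.0, 70.97 and 81.4 CPM in injury-only libraries, against 44.3, 38.5, 47.0, 38.9 and 39.9 CPM in uninjured libraries. The ratio Rpl22l1/Rpl22 averaged -0.29 in injury-only and 0.59 in uninjured libraries, a difference of -0.88. Both differences had p = 0.00794 in an exact two-sided permutation test of 5 against 5 libraries, the smallest value it can give, and 0.0397 after Benjamini-Hochberg adjustment over 20 tests (4 pairs at 5 days).

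At day 7 the difference in Rpl22l1/Rpl22 was still -0.86 (0.10 in injury-only and 0.96 in uninjured libraries, exact permutation p = 0.00794, adjusted 0.0397). The difference in Rps27l/Rps27 was 0.17 (-1.20 in injury-only and -1.37 in uninjured libraries, exact permutation p = 0.190). At day 7 Rpl36al/Rpl36a, the ratio of an autosomal paralogue to the X-linked gene, was lower by 0.65 on the log2 scale (1.11 in injury-only and 1.76 in uninjured libraries, exact permutation p = 0.00794, adjusted 0.0397). At day 1 that pair had 1.5 in injury-only and 1.59 in uninjured libraries (exact permutation p = 0.381). No other pair and day passed after adjustment. Days 14 and 60, with 3 libraries against 3, cannot give a p below 0.1. The counts of all these pairs may share reads with close copies.

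**Figure D3:**
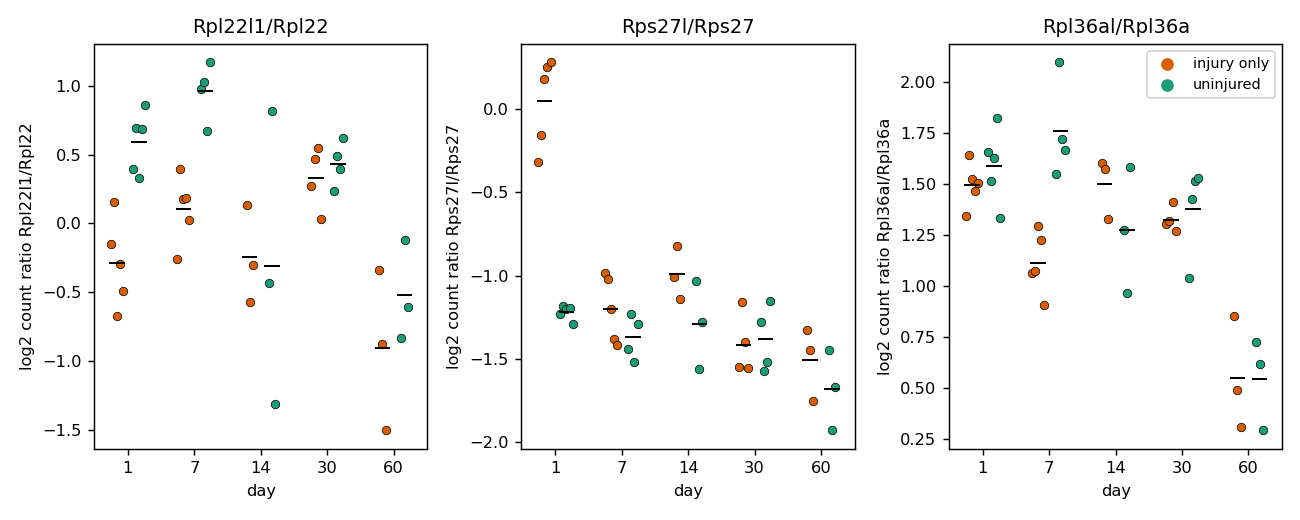
Log2 ratio of the counts of 2 paralogues within each library (vertical axes; Rpl22l1/Rpl22, Rps27l/Rps27 and Rpl36al/Rpl36a) against day after injury for injury-only and uninjured libraries; bars are group means. Rps27l/Rps27 is apart at day 1 alone (0.05 in injury-only and -1.22 in uninjured libraries), while Rpl22l1/Rpl22 is apart at days 1 and 7 and Rpl36al/Rpl36a at day 7.

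Genes that work with the ribosome were counted beside its proteins at day 1. Of 37 ribosome biogenesis genes 36 rose, with a median of 1.07. Among them were Ncl and Npm1, abundant nucleolar proteins, at 1.46 ± 0.15 and 1.09 ± 0.11, and Nhp2, a core protein of the particles that modify rRNA, at 1.46 ± 0.14. Of 19 translation factors with a TOP tract 15 rose, with a median of 0.62; Eef1g, a subunit of elongation factor 1, led with 154 CPM in injury-only and 50.2 CPM in uninjured libraries. Of 21 other initiation factors 13 rose, among them the helicase Eif4a1 at 1.02 ± 0.11. Of 15 tested regulators of TOP mRNAs and mTORC1 4 rose and 1 fell; Larp1 rose by 1.06 ± 0.18 and the translation repressor Eif4ebp1 by 1.24 ± 0.16. Rack1, a scaffold on the small subunit that the symbol rule does not take, rose by 1.45 ± 0.13, while Fau, with 0.29 ± 0.13, did not pass. Of 77 tested mitochondrial ribosomal proteins 43 rose, with a median of 0.37, and of 76 nuclear-encoded respiratory chain subunits 39 rose and 2 fell, with a median of 0.32.

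Other measures moved with the injury at day 1. All 10 microglial markers fell, and their sum was 23806 to 28689 CPM in injury-only and 42852 to 46854 CPM in uninjured libraries. Of 7 tested monocyte markers 6 rose, their sum being 49.1 to 204 CPM in injury-only and 25.9 to 51.5 CPM in uninjured libraries, and neutrophil markers were at 1.83 to 10.4 CPM in injury-only and 0 to 0.211 CPM in uninjured libraries. Of 10 immediate early and handling genes, such as Fos and Jun, 9 fell, with sums of 35318 to 45589 CPM in injury-only and 62936 to 72285 CPM in uninjured libraries. Beyond a fit that left the immediate early and handling genes out of library sizes, the part of these markers in the result was not tested. In bulk RNA, a change in the mix of cells and a change in RNA per cell cannot be told apart.

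At day 7 the same direction held at a smaller size. The 84 genes took 0.747% to 0.931% of counts in injury-only and 0.552% to 0.644% in uninjured libraries, the ranges being apart. Of the 84 genes 79 had a positive fold change, with a median of 0.46 (0.00 for all genes tested), and in 53 every injury-only library was above every uninjured library, against 8.33% of all genes. In the shared fit of all treatments of the day 3 rose and none fell, against 6.14% and 1.54% of all 14278 genes tested; 24 had an unadjusted p under 0.05. That fit takes its spread from all libraries of the day, including vehicle library 4, which is in neither group. Without that library 62 rose, against 8.06% of all genes, and none fell (3.58%), with a median of 0.45, and 56 rose in a fit of the 2 groups alone (8.8% of all genes, with 2.71% lower), so 1 library decides this count. Without injury-only library 1 or 3, or uninjured library 2, 3 or 4, the shared fit called 1 gene. The share of all genes called in those fits is not given.

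The 3 genes that rose at day 7 in the shared fit were Rpl35, Rps19 and Rps6. Rpl35, of the large subunit, was at 136, 96.2, 153, 120 and 133 CPM in injury-only libraries, against 85.3, 69.3, 69.4 and 81.4 CPM in uninjured libraries. Its groups did not overlap, and the log2 fold change was 0.74 ± 0.17 (edgeR adjusted p = 0.0110). Rps19, mutated in Diamond-Blackfan anaemia in humans, rose by 0.70 ± 0.18 and Rps6 by 0.52 ± 0.14. The largest fold change was that of Rpl39 with 0.82 ± 0.40 (edgeR adjusted p = 0.252), followed by Rps15a with 0.78 ± 0.38, and the lowest that of Rpl22l1 with -0.44 ± 0.19, again below 0 but not called (edgeR adjusted p = 0.169). Rpl39l had -0.27 ± 0.61 and Rpl7l1 -0.26 ± 0.12, neither called.

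The leading genes of day 1 were nearer their uninjured level at day 7. Rpl38 averaged 38.4 ± 5.24 CPM in injury-only (n = 5) and 25.3 ± 1.87 CPM in uninjured libraries (n = 4), with a log2 fold change of 0.60 ± 0.25. Rpl5 averaged 50.8 ± 8.53 CPM in injury-only and 42.7 ± 5.01 CPM in uninjured libraries, a fold change of 0.25 ± 0.30 on the log2 scale. Rps27 was at 100, 112, 125, 107 and 106 CPM in injury-only libraries, against 92.9, 73.8, 80.7 and 84.5 CPM in uninjured libraries. That gene had been on the low side at day 1 and now had a log2 fold change of 0.41 ± 0.23, which passed in the fit without vehicle library 4 (adjusted p = 0.0148, edgeR) and not in the shared fit (0.325). Of 37 biogenesis genes none was called in the shared fit, while 1 rose and 1 fell without vehicle library 4, with a median of -0.08 in both. Of 77 mitochondrial ribosomal proteins none was called in the shared fit and 1 fell without that library, with a median of 0.01 in both. Of 77 respiratory chain subunits 10 rose in the shared fit and 20 without that library. Immediate early and handling sums were 38114 to 58072 CPM in injury-only and 66687 to 73453 CPM in uninjured libraries of day 7. Of the microglial markers 4 of 10 fell at day 7 in either fit. Of 7 tested monocyte markers 1 rose in the shared fit and 2 without vehicle library 4, 4 of 6 endothelial and mural and 2 of 5 astrocyte markers rose in either fit, and their part in the result was not tested.

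Day 14 turned on single uninjured libraries. The 3 injury-only libraries had 0.649%, 0.624% and 0.710% of counts in the 84 genes, against 0.794%, 0.514% and 1.51% in the 3 uninjured libraries. The uninjured range thus enclosed the injured one, and its highest library is the one with the neutrophil and monocyte markers. None of the 84 genes was called (0% of 14354 genes in either direction by edgeR, and none of the 84 by DESeq2), 4 had an unadjusted p under 0.05, and the median was -0.48. Without uninjured library 3 the median was 0.07. Without uninjured libraries 1 and 3 it was 0.57 (0.14 for all genes tested) with 6 genes called higher and none lower, against 10.5% and 5.06% of all genes; 1 uninjured library then stands for its group, assumed to vary like the others, and both were left out after their values were seen. In that fit Rpl12 had the largest log2 fold change of the 84 genes, at 1.78.

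Rplp0, of the ribosomal stalk, was at 303, 361 and 326 CPM in injury-only libraries, against 386, 229 and 725 CPM in uninjured libraries of day 14, and the injured libraries lay within the uninjured range. With all libraries kept, the highest fold changes were those of Rps19bp1 (0.58 ± 0.30), Rpl7l1 (0.20 ± 0.20) and Rpl12 (0.13 ± 0.38) on the log2 scale, and the lowest those of Rps28 (-0.93 ± 0.54), Rps27rt (-0.91 ± 0.60) and Rpl37a (-0.91 ± 0.45). None of these 6 was called.

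At day 30 the 4 injury-only libraries had 0.608% to 0.775% and the 4 uninjured libraries 0.561% to 0.684% of counts in these genes. None was called by edgeR or DESeq2 (0% of 14082 genes in either direction), none had an unadjusted p under 0.05, and the median was 0.10 with a median standard error of 0.15. Rpl38, the leading gene of day 1, was at 34.3, 23.9, 24.5 and 28.7 CPM in injury-only libraries, against 31.8, 23.7, 24.2 and 23.0 CPM in uninjured libraries of day 30, and the groups overlapped. The lowest fold change of day 30 was -0.65 ± 0.41 in Rps27rt. That gene was at 1.17 ± 0.337 CPM in injury-only and 1.83 ± 0.475 CPM in uninjured libraries (SD, n = 4 each). The highest was 0.27 ± 0.23 in Rpl13a, with Rpl22 and Rpl36 next at 0.23 each, while Rpl39l and Rpl8 were at -0.13 and -0.07.

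At day 60, with 83 of the genes tested, the 3 injury-only libraries had 0.884% to 1.40% and the 3 uninjured libraries 1.06% to 1.29%. None was called by edgeR or DESeq2 (0.0416% of 12033 genes rose and 0% fell), none had an unadjusted p under 0.05, and the median was -0.03. Without injury-only library 4 that median was -0.30. Rpl38 was at 31.9, 48.4 and 61.9 CPM in injury-only libraries, against 55.7, 59.8 and 63.1 CPM in uninjured libraries, 1 injured library lying among the uninjured ones. The lowest fold changes were those of Rpl35a (-1.34 ± 0.68), Rpl39 (-0.54 ± 0.30) and Rpl22l1 (-0.47 ± 0.28), and the highest those of Rplp0 (0.26 ± 0.20), Rpl6 (0.22 ± 0.19) and Rps2 (0.22 ± 0.22). The ranges did not overlap in Rpl35a, Rpl39, Rpl22l1 and Rpl6, and overlapped in Rplp0 and Rps2. The share of all genes without overlap is not given for this day, so with 3 libraries against 3 this is no result about these genes. All 6 had an adjusted p of 1 in edgeR.

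**Figure D4:**
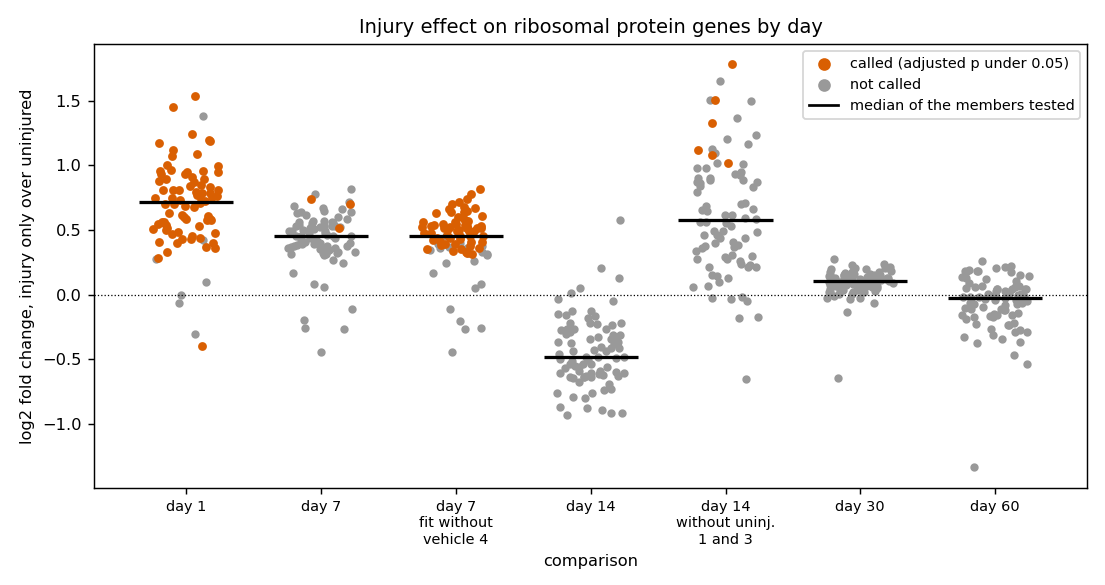
Log2 fold change of injury only over uninjured (vertical axis) for each ribosomal protein gene at 5 days, with day 7 also fitted without vehicle library 4 and day 14 without uninjured libraries 1 and 3; bars are medians. The median is 0.72 at day 1 and 0.46 at day 7, and at day 14 it is -0.48 with all libraries and 0.57 without those 2. The 1 uninjured library then kept had the lowest share of its group, which favours a positive median.

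The injury effect was then tested for a difference between days in 1 model of all injury-only and uninjured libraries. Of the 84 genes 50 were called, against 12.2% of 15555 genes tested. In 45 of those 50 the fold change was largest at day 1, a count given without its share among all called genes. Rpl5 (edgeR adjusted p = 4.75e-05), Rpsa (5.06e-05) and Rpl38 (0.000146) were among the clearest, Rplp0 (0.00146), Rps6 (0.0123), Rps27l (0.0140), Rplp2 (0.0147) and Rplp1 (0.0476) were called too, and Rpl11, Rps27, Rpl22 and Rpl22l1 were not. Days 14 and 60 come from other years than days 1, 7 and 30, so that year and day cannot be told apart there. With day 7 left out 30 genes were called, against 8.17% of all genes. The count was 54 with day 14 left out (18.3% of all genes), 39 with day 30 left out (9.65%) and 56 with day 60 left out (16.6%).

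The study's main question concerned clodronate, and no ribosomal protein gene was called between clodronate and vehicle in the fits of all libraries with the filter on low counts, by edgeR or by DESeq2. Without that filter edgeR called 4 genes lower with clodronate at day 7, against 0.343% of all genes, and 1 at day 60, against 0.11%. At day 1, 6 clodronate libraries were set against 4 vehicle libraries with the year as a covariate. In those of the earlier year the share of counts was 0.812% to 1.00% with clodronate and 0.882% to 0.988% with vehicle, and in those of the later year it was 1.26% to 1.54% with clodronate and 1.34% to 1.82% with vehicle. The years were further apart than the treatments, and in the later libraries the immediate early and handling sum was also lower (14064 to 21631 CPM with clodronate and 18376 to 21800 CPM with vehicle) than in those of the earlier year (41319 to 43290 CPM with clodronate and 40002 to 42029 CPM with vehicle). None of the 84 genes was called, against 0.152% of all genes called higher and 0.0344% lower, and none had an unadjusted p under 0.05. The median log2 fold change was -0.08, with a median standard error of 0.12. The lowest fold changes were those of Rps28 (-0.22 ± 0.14), Rps27l (-0.22 ± 0.12) and Rps10 (-0.21 ± 0.12), and the highest those of Rpl39l (0.15 ± 0.54), Rps27rt (0.13 ± 0.37) and Rpl14 (0.07 ± 0.14).

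At day 7 the median over all libraries was -0.52, with 29 genes at an unadjusted p under 0.05 and none called (0.455% of all genes higher and 0.119% lower). This direction rests on vehicle library 4. The share was 0.737% to 0.933% in the 5 clodronate libraries and 0.671% to 0.756% in the other 3 vehicle libraries. Without library 4 the median was 0.12, with 67 of 84 fold changes positive and none called (0.261% of all genes higher and 0.0344% lower). With vehicle library 2 or 3 left out instead, 2 and 1 genes fell, counts given without the share of all genes. In vehicle library 4 Rpl35a, a large-subunit gene, stood at 939.5 CPM, against 47.5 to 61.7 CPM in the other 3 vehicle libraries. Over all libraries Rpl35a had the lowest fold change, -2.32 ± 0.62 (edgeR adjusted p = 0.0896), followed by the small-subunit genes Rps12 (-1.77 ± 0.54) and Rps21 (-1.41 ± 0.47), and the highest were Rps27rt (0.66 ± 0.39), Rpl36al (0.19 ± 0.15) and Rpl7l1 (0.07 ± 0.12).

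At day 14 the count depended on 2 libraries. The share was 0.590%, 1.02%, 0.877%, 0.901% and 0.915% in clodronate libraries 1 to 5, against 1.07%, 0.667%, 0.720%, 0.724% and 0.798% in vehicle libraries 1 to 5. Library 1 of each group lay on the far side of the other group. Clodronate library 1 also had immediate early and handling genes at 68408 CPM and monocyte markers at 38.2 CPM, where the other 4 clodronate libraries had 27598 to 34172 CPM and 158 to 230.0 CPM. Vehicle library 1 had 30888 CPM and 219 CPM, where the other 4 vehicle libraries had 54722 to 58867 CPM and 60.3 to 94.8 CPM.

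Rpl38 was at 20.97, 50.2, 39.8, 37.6 and 40.4 CPM in clodronate libraries 1 to 5, against 59.1, 27.0, 30.1, 33.9 and 35.7 CPM in vehicle libraries 1 to 5. Apart from library 1, every clodronate library was above every vehicle library in this gene. With all libraries the median at day 14 was 0.19, none was called and none had an unadjusted p under 0.05 (0% of all genes called). In a fit of the clodronate and vehicle libraries alone, without library 1 of each group, 72 rose and 1, Rpl22l1, fell, against 13.2% and 11.5% of 13033 genes, and the median was 0.52. With all libraries Rpl39l (1.12 ± 0.71), Rpl23 (0.43 ± 0.34) and Rps26 (0.39 ± 0.40) were highest and Rpl22l1 (-0.27 ± 0.19), Rpl7l1 (-0.16 ± 0.16) and Rps19bp1 (-0.13 ± 0.23) lowest. In the smaller fit Rps26 rose by 0.83 ± 0.11, Rps20 by 0.83 ± 0.12 and Rpl23 by 0.78 ± 0.10 on the log2 scale, and Rpl22l1 fell by 0.45 ± 0.10 (edgeR adjusted p = 0.00894). Those 2 libraries were left out after their values, these genes included, were seen, so the larger count is no independent test. The same fit with both kept gave no call (0% of all genes). The fit of all treatments without those 2 libraries, which takes part of its spread from uninjured library 3, called none of the 84 genes, against 1.46% of all genes higher and 0.708% lower. Whether library 1 of each group carries the right label was not tested.

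**Figure D5:**
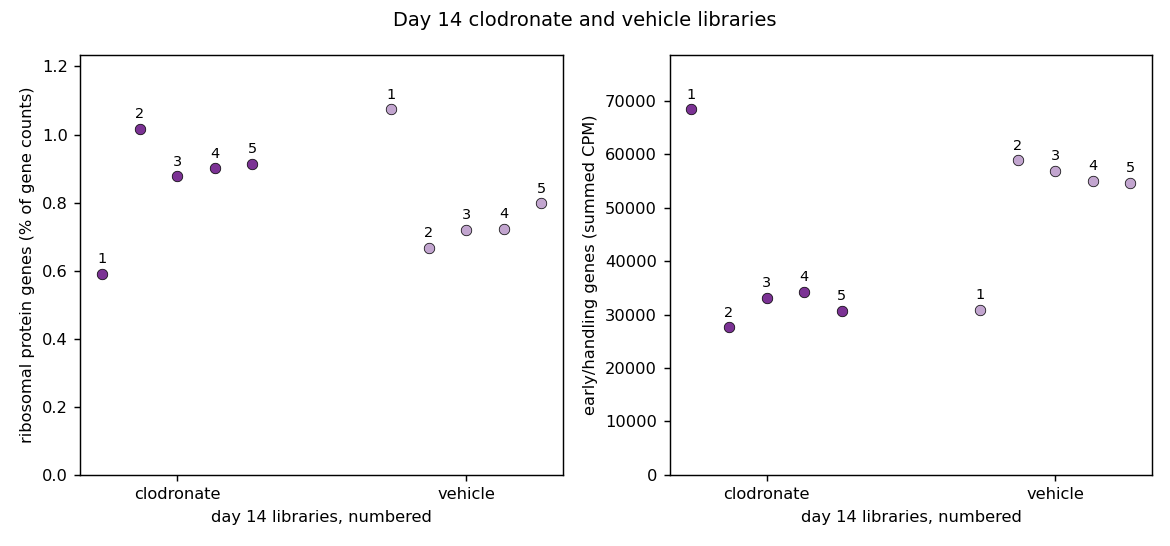
Percent of gene counts in the 84 ribosomal protein genes (left) and summed CPM of 10 immediate early and handling genes (right) in the clodronate and vehicle libraries of day 14, numbered as in the labels. Clodronate library 1 (0.590%, 68408 CPM) and vehicle library 1 (1.07%, 30888 CPM) each lie with the other group.

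At day 30 the share was 0.631% to 0.753% with clodronate and 0.555% to 0.866% with vehicle, none of the 84 genes was called or had an unadjusted p under 0.05 (0% of all genes called), and the median was 0.11. Without vehicle library 1, the highest of its group, it was 0.30, and still none was called. Rps27rt (0.30 ± 0.40), Rpl36a (0.27 ± 0.18) and Rps24 (0.23 ± 0.20) were highest and Rpl39l (-0.30 ± 0.83), Rps15 (-0.09 ± 0.20) and Rpl10 (-0.04 ± 0.09) lowest at day 30.

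At day 60 the share was 0.963% to 1.18% with clodronate and 0.923% to 1.46% with vehicle, none of 83 tested genes was called (0% of all genes), 7 had an unadjusted p under 0.05, and the median was -0.19. Immediate early and handling sums were 36185 to 49465 CPM with clodronate and 27542 to 41690 CPM with vehicle. Beyond a fit that left these genes out of library sizes, their part was not tested. The smallest p was that of Rpl30, of the large subunit, at 58.8 ± 12.5 CPM with clodronate and 97.6 ± 11.2 CPM with vehicle (SD, n = 4 each), a log2 fold change of -0.74 ± 0.20 (edgeR adjusted p = 0.498). Rpl35a was at 81.9, 521, 94.8 and 97.3 CPM with clodronate, against 1090, 404, 207 and 157 CPM with vehicle, a log2 fold change of -1.23 ± 0.60. Its groups overlapped widely. The highest values of Rpl35a were in clodronate library 2 and vehicle libraries 1 and 2, which had under 2500000 counts. The part of depth in Rpl35a was not tested. Rps27rt (-0.67 ± 0.63) was the next lowest after Rpl30, and Rps19bp1 (0.33 ± 0.37), Rpl6 (0.19 ± 0.16) and Rpl7l1 (0.18 ± 0.16) were highest.

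Whether the clodronate effect differed between days was also tested over all days. That test kept vehicle library 4 of day 7 and library 1 of both day 14 liposome groups, and was not run without those libraries. None of the 84 genes was called by edgeR, against 0.131% of 16773 genes called, and none by DESeq2's likelihood ratio test. Before adjustment 6 had an edgeR p under 0.05, which is another threshold than that share.

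Vehicle liposomes were set against injury only on the 4 days that share a year. At day 1 all 84 fold changes were negative, with a median of -0.26 (-0.01 for all genes tested), and 22 had an unadjusted p under 0.05, but none was called by edgeR or DESeq2 (0.207% of all genes higher and 0.668% lower). In libraries of the earlier year the share was 0.882% and 0.988% with vehicle, against 0.973% to 1.19% in injury-only libraries, so that the ranges overlapped. In a fit of that year alone the median was -0.29, all 84 were negative, 31 had an unadjusted p under 0.05 and none was called (0.228% of all genes higher and 0.685% lower). Rps6, with the smallest adjusted p (edgeR, 0.131), had a log2 fold change of -0.40 ± 0.13 in the fit of both years, close to Rps23 (-0.41 ± 0.15) and Rps27 (-0.37 ± 0.16); Rps27rt (-0.01 ± 0.44), Rpl10a (-0.03 ± 0.16) and Rpl39l (-0.09 ± 0.65) were nearest 0. The comparison shares its injury-only libraries with that of injury only and uninjured.

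At day 7 the median of vehicle over injury only was 0.54 with all libraries and -0.09 without vehicle library 4, with 30 and 2 genes at an unadjusted p under 0.05. None was called in either fit (with all libraries 0.196% of all genes higher and 0.14% lower, without that library 0.289% and 0.186%). With vehicle library 2 or 3 left out instead, 1 gene rose, a count given without the share of all genes. Rpl35a (2.23 ± 0.62), Rps12 (1.70 ± 0.54) and Rps4x (1.24 ± 0.42) were highest with all libraries and Rps27rt (-0.59 ± 0.39), Rpl7l1 (-0.13 ± 0.12) and Rpl36al (-0.11 ± 0.15) lowest. At day 30 the median was -0.07 (-0.28 without vehicle library 1), none was called (0% of all genes) and none had an unadjusted p under 0.05. Rps27rt (0.72 ± 0.41), Rpl39l (0.56 ± 0.85) and Rps27l (0.22 ± 0.20) were highest and Rpl13a (-0.37 ± 0.23), Rpl36 (-0.33 ± 0.18) and Rps19bp1 (-0.27 ± 0.13) lowest. At day 60 the median was 0.09 (0.35 without injury-only library 4), none was called (0% of all genes higher and 0.00831% lower) and 3 had an unadjusted p under 0.05, Rpl35a having the largest fold change with 2.14 ± 0.68 (edgeR adjusted p = 0.635), ahead of Rpl30 (0.48 ± 0.21) and Rpl38 (0.47 ± 0.21). Rpl6 (-0.32 ± 0.17), Rps7 (-0.24 ± 0.20) and Rpl7l1 (-0.23 ± 0.17) were lowest. The highest Rpl35a values of day 60 vehicle were in libraries 1 and 2, which had under 2500000 counts. DESeq2 called none on these 3 days.

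The genes were also set side by side by the TOP-like run at the annotated start. The 30 genes with a run within 5 bases had a median log2 fold change of 0.81, 27 of them rising and 1 falling, and the 34 without had a median of 0.70, 31 of them rising. The 20 genes with no promoter in the table had a median of 0.58, 18 of them rising. Single genes went both ways. Rpl38 and Rpl12, which rose by over 1 on the log2 scale, show the run, and Rplp0 and Rpsa, which also did, do not. Rps27 and Rpl22l1, which were on the low side, both show it. These values are a description of annotated starts, with no test.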

How the data were processed

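Per the labels' protocols, RNA of sorted microglia was isolated with a PicoPure kit, amplified as cDNA through 11 PCR cycles and made into Nextera XT libraries. Per the submitters' processing notes, STAR was used with mouse build mm10 (GRCm38). Its version, the sort gates, and the HTSeq settings with their strand option were not given in the sources used here. The authors deposited raw counts per Ensembl gene for each library, and a run summary of percent values per library, in which 1 of 85 lines could not be tied to a library and was set aside. Symbols came from GENCODE M21, and promoter sequences from RefSeq (GRCm38.p6). The 5 summary lines of each file that name no gene were left out (no-feature reads had a median of 5.07%). Libraries of a group differed beyond sampling noise (chi-square over degrees of freedom at least 6.40), so each counts once.

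The 84 genes, the gene lists and the rule for named genes (per comparison the 3 largest and 3 smallest fold changes, members called against the majority, and fixed members such as Rplp0, Rpsa, Rps6, Rpl5, Rpl11 and the paralogue pairs) were chosen with earlier results of these data known. A few genes that this rule or these lists take are counted but not reported by name here. Within days, 14 comparisons were tested on counts with edgeR 4.0.16 in R 4.3.3 (TMM, filterByExpr with minimum count 10 and total 15, quasi-likelihood F test, all treatments of the day in 1 fit, year as covariate at day 1). Standard errors are the fold change over the square root of F, and CPM of single genes in groups and libraries uses TMM-scaled sizes. Marker and handling sums, the mean CPM of the limit and CPM per kb use total gene counts without TMM. Counts at an unadjusted p under 0.05 are given without the share of all genes at that level, and are not calls. DESeq2 1.42.0 was an alternative. Paralogue ratios add 0.5 to each count. The scripts were tested on simulated data. Same-numbered libraries deviated together in all 4 pairs of vehicle and injury only at day 30 (correlations 0.106 to 0.213). In some other comparisons all pairs were also above 0, such as injury only and uninjured at day 30 (0.0454 to 0.194). In the rest some or all were below 0. Those groups were not read as paired, and whether the numbers pair them was not settled. The likelihood ratio test of DESeq2 took the place of its Wald test between days. The labels name no molecular identifiers, so PCR copies may be among the counts.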

Additional observations from a re-analysis of the deposited data

Results flagged for a closer look

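Values far from the rest of their group were looked for in 98 combinations of group and measure with 4 or 5 libraries: the share of counts in the 84 genes, and the CPM of Rpl38, Rplp0, Rps27, Rps27l, Rpl22 and Rpl22l1. Chance gives about 1 such value in 20 combinations, and 20 were found. The measures come from the same libraries and are not independent, so this is no test of an excess over chance. Of these, 6 belong to vehicle library 4 of day 7: a share of 2.033% against 0.671% to 0.756% in the other 3 vehicle libraries, Rpl38 at 103.8 CPM, Rplp0 at 765.1 CPM, Rps27 at 273.8 CPM, Rpl22 at 123.7 CPM and Rpl22l1 at 52.99 CPM. A further 6 belong to vehicle library 1 of day 30, with a share of 0.8661% against 0.555% to 0.584% in the other 3, Rpl38 at 40.63 CPM, Rplp0 at 361.8 CPM, Rps27 at 117.2 CPM, Rps27l at 56.3 CPM and Rpl22 at 35.76 CPM. Vehicle library 1 of day 14 gave 4: Rpl38 at 59.06 CPM, Rps27 at 168.4 CPM and Rps27l at 61.3 CPM were high, and Rpl22l1 at 18.52 CPM was low against 30.1 to 31.2 CPM. The others were Rpl38 in injury-only library 4 of day 1 (61.44 CPM, low), in uninjured library 4 of day 7 (28.03 CPM, high) and in uninjured library 1 of day 30 (31.76 CPM, high), and Rpl22l1 in uninjured library 3 of day 7 (32.53 CPM, low). The part of depth and read quality in them was not tested.

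The injury effect differed between days, by the test of the difference itself, in 50 of the 84 genes. Among the genes named throughout these were Rpl38 (edgeR adjusted p = 0.000146), Rplp0 (0.00146), Rps27l (0.014), Rps6 (0.0123), Rpl5 (4.75e-05), Rpsa (5.06e-05), Rplp1 (0.0476) and Rplp2 (0.0147).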

How the results depend on the processing

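The rise at day 1 kept to 69 to 78 genes under all alternatives run, among them library sizes without the immediate early and handling genes. The count of genes that fell was 0 with total counts, 2 in a fit of the 2 groups alone, 2 with a replicate block and 0 to 2 with 1 library left out. At day 7 the injury count of 3 was 5 with total counts, 6 without the filter on low counts, 5 by DESeq2, 56 in a fit of the 2 groups, 29 with the replicate block and 62 without vehicle library 4 (chosen after seeing the data), and 1 to 3 with 1 library left out. Of all genes, 6.14% rose at day 7 with the main settings, 5.9% with total counts, 3.6% without the filter, 8.8% in the fit of the 2 groups and 5.56% with the block. Without the filter 4 genes fell with clodronate at day 7 (0.343% of all genes, against 0.119% with it), 3 rose with vehicle over injury only at day 7 (0.541%, against 0.196%), 1 fell with injury (0.0297%) and 1 with clodronate (0.11%) at day 60, and 1 rose with vehicle at day 60 (0.11%). With 1 library left out, 0 to 2 fell with clodronate and 0 to 1 rose with vehicle at day 7, and 0 were called in every other comparison of those with a count of 0. Apart from the fit without vehicle library 4, the share of all genes called with 1 library left out is not given. At day 14 an alternative chosen after seeing the data called 72 higher and 1 lower with clodronate. That for injury left 1 uninjured library to stand for its group. Its count is given with that limit in the day 14 results and is not repeated here. The test between days gave 31 without the filter (4.83% of all genes) and 30 without day 7 (8.17%) for injury, and 3 without the filter (1.85%) for clodronate. Rpl7l1 at day 1, at 0.00 on the log2 scale, was 0.0057 with TMM computed without the 84 genes, 0.109 with total counts and -0.0341 to 0.0446 with single libraries left out, and Rpl36al at day 7 was -0.0328 to 0.103. Outside injury at days 1 and 7 the replicate block changed no call. The cause of these shifts was not tested. The numbers of day 14 clodronate and vehicle libraries correlated at -0.638 to -0.0481 and were not used as pairs. Depth limits day 60 most, where totals went down to 1109856 counts.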

Other observations

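The authors' deposited run summary gives a percent headed RPL genes per exonic for each library. The header defines neither the gene set nor the total, so this percent may not be the same measure as the share used here. It ran from 0.67% to 2.14%, beside 0.514% to 2.03% for the share of the 84 genes, and its highest value was also in vehicle library 4 of day 7.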
